A study of Mus musculus with 36 samples.

Results

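Immunoglobulin heavy and light chain genes were followed in epididymal white adipose tissue (eWAT) of 36 male mice. The members were all genes of the deposited table whose symbol marks a variable (V), diversity, joining or constant (C) segment of the heavy chain (*Igh*), kappa (*Igk*) or lambda (*Igl*) locus, *Ighmbp2* left out, since its symbol only looks like that of the family. There were 108 members among 24750 genes. Of these, 97 were V segments (40 *Ighv*, 54 *Igkv* and 3 *Iglv* genes) and 11 were C regions, and no diversity or joining segment was among the genes of the table. The gene name table held 395 symbols of this kind, among them 185 *Ighv*, 160 *Igkv* and 3 *Iglv* genes, and a gene needed at least 36 reads over all libraries to be in the deposited table.

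The mice were wild-type (WT) C57BL/6 mice or CCL19-KI mice. The latter are a homozygous line in which the chemokine gene *Ccl19* had been inserted at the *Adipoq* locus, so that it follows the adipocyte promoter. Per the authors, *Adipoq* itself was not disrupted. The WT mice were bred separately from the CCL19-KI line. Mice of each genotype were fed a normal diet (ND), a 40% high-fat diet (HFD) or a 60% HFD for 10 weeks, received a ligature on upper molars at 14 weeks of age, after 8 weeks of feeding, to induce periodontitis or, by the labels, none, and were sampled at 16 weeks, so that each of the 12 groups of diet, genotype and ligature held 3 mice. Before eWAT was taken, the mice were perfused and lymph nodes were removed.

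Each B cell joins a heavy chain V segment and a light chain V segment to further segments, and the joined V exon is transcribed together with a C region. The C region of the heavy chain sets the isotype: *Ighm* and *Ighd* encode the mu and delta chains of naive B cells, and *Igha* and the *Ighg* genes encode the alpha and gamma chains that follow class switching. Plasma cells transcribe these genes at far higher levels than resting B cells, and they also make *Jchain*, which joins IgM and IgA molecules into polymers. Visceral fat of mice holds B-1 cells, which make natural IgM and use a restricted set of V segments, the best known being *Ighv11-2* with *Igkv14-126* and *Ighv12-3* with *Igkv4-91*.

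The V segments that carried most reads, or that stood out in a single mouse, are shown by the end of their coding sequence. Each line gives the last 72 bases of the transcript, 5′ to 3′ on the coding strand, from the GENCODE M21 annotation of GRCm38, and the capitals run from the codon of the conserved cysteine to the end of the segment, which is the germline part of the third complementarity-determining region of the antibody. *Ighv11-2* lies on the minus strand at chr12:114048241-114048812 and *Igkv14-126* on the plus strand at chr6:67896172-67896642, and these were the V segments with most reads. *Igkv14-111* (chr6:68256389-68256869, plus strand) is the relative of *Igkv14-126*, *Iglv1* (chr16:19085017-19085500) and *Iglv2* (chr16:19260401-19260859) are the lambda segments on the minus strand, and *Igkv12-44* and *Ighv1-72* led the kappa and heavy chain reads of a single mouse.
Ighv11-2: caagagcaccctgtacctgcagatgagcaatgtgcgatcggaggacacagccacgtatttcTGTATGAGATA
Ighv1-72: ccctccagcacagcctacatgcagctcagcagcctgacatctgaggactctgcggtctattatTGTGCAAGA
Igkv14-126: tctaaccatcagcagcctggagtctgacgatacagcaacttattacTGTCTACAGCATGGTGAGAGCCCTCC
Igkv14-111: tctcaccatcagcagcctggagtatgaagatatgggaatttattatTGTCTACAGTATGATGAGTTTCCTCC
Igkv12-44: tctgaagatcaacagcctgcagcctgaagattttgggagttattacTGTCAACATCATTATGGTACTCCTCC
Iglv1: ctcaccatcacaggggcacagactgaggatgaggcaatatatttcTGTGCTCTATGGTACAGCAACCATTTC
Iglv2: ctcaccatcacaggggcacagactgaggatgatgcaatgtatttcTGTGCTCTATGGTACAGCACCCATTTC

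The likeness between segments limits how well reads can be assigned. *Igkv14-126* and *Igkv14-111* were identical at 91.6% of 358 aligned bases, and *Iglv1* and *Iglv2* at 97.1% of 348. Of the 108 members, 87 shared at least 1 word of 31 bases with another member, and 23 shared over 50% of their words. *Ighv11-2* shared 50.6% of its words with *Ighv11-1*, which is not in the table, so that reads of the 2 genes cannot be fully told apart. *Ighv1-72* shared 96.7% of its words with genes that are not members, so its reads cannot be fully told apart from theirs either. In contrast, *Ighm* shared 0 of its 1856 words with any other gene.

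The libraries held 11962228 to 21581595 reads (median 15573273), so that 1 read was worth 0.0472 to 0.0834 normalized CPM (reads scaled by library size, as deposited), and 3 reads, the limit that a count of 0 allows, 0.142 to 0.250. Only counting error is covered by this limit and by the intervals given below. Adipocyte markers were high in all libraries (summed level of 10 genes 5258 to 30274), as the tissue label says, but hepatocyte markers ranged from 11.1 to 38349 over the libraries and epididymal markers from 0 to 12723. *Ccl19* was 0.507 to 4.51 in 17 WT libraries and 5.57 to 34.6 in 17 CCL19-KI libraries. It went against the label in the other 2, with 19.2 in the library labelled WT fed an ND without ligature, replicate 2, and 0.687 in the library labelled CCL19-KI fed a 60% HFD without ligature, replicate 3. The mouse genome holds near-identical copies of *Ccl19*, and the tests that used these libraries were repeated without them. In a piece of tissue, fewer cells of a type and less RNA per cell cannot be told apart, which applies to every level given here.

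*Ighm* was by far the most abundant immunoglobulin transcript. It took 154367 of the 194969 reads of the members (79.2%), followed by *Igkc* with 8.51%, the *Igkv* segments with 5.07%, the *Ighv* segments with 2.86%, the lambda C regions with 1.46% and the *Iglv* segments with 0.823%. Per kb of exon, the median level over the 36 libraries was 133 normalized CPM for *Ighm* and 33.2 for *Igkc*, which encodes the constant region of kappa light chains. *Ighd* came far below at 1.59 and *Igha*, the constant region of IgA, at 0.282. *Ighm* was above *Igkc* per kb in 31 libraries.

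A heavy chain is made with a light chain in B cells, but the levels of *Ighm* and of the light chains were not tied to each other across mice. The ratio of *Ighm* to the summed light chain C regions, both per kb, ran from 0.261 in ligatured WT mice fed an ND, replicate 2, to 17.0 in WT mice fed an ND without ligature, replicate 1, with a median of 2.29. The ratio of *Ighm* to *Ighd* per kb ran from 13.1 to 292.

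**Figure D1:**
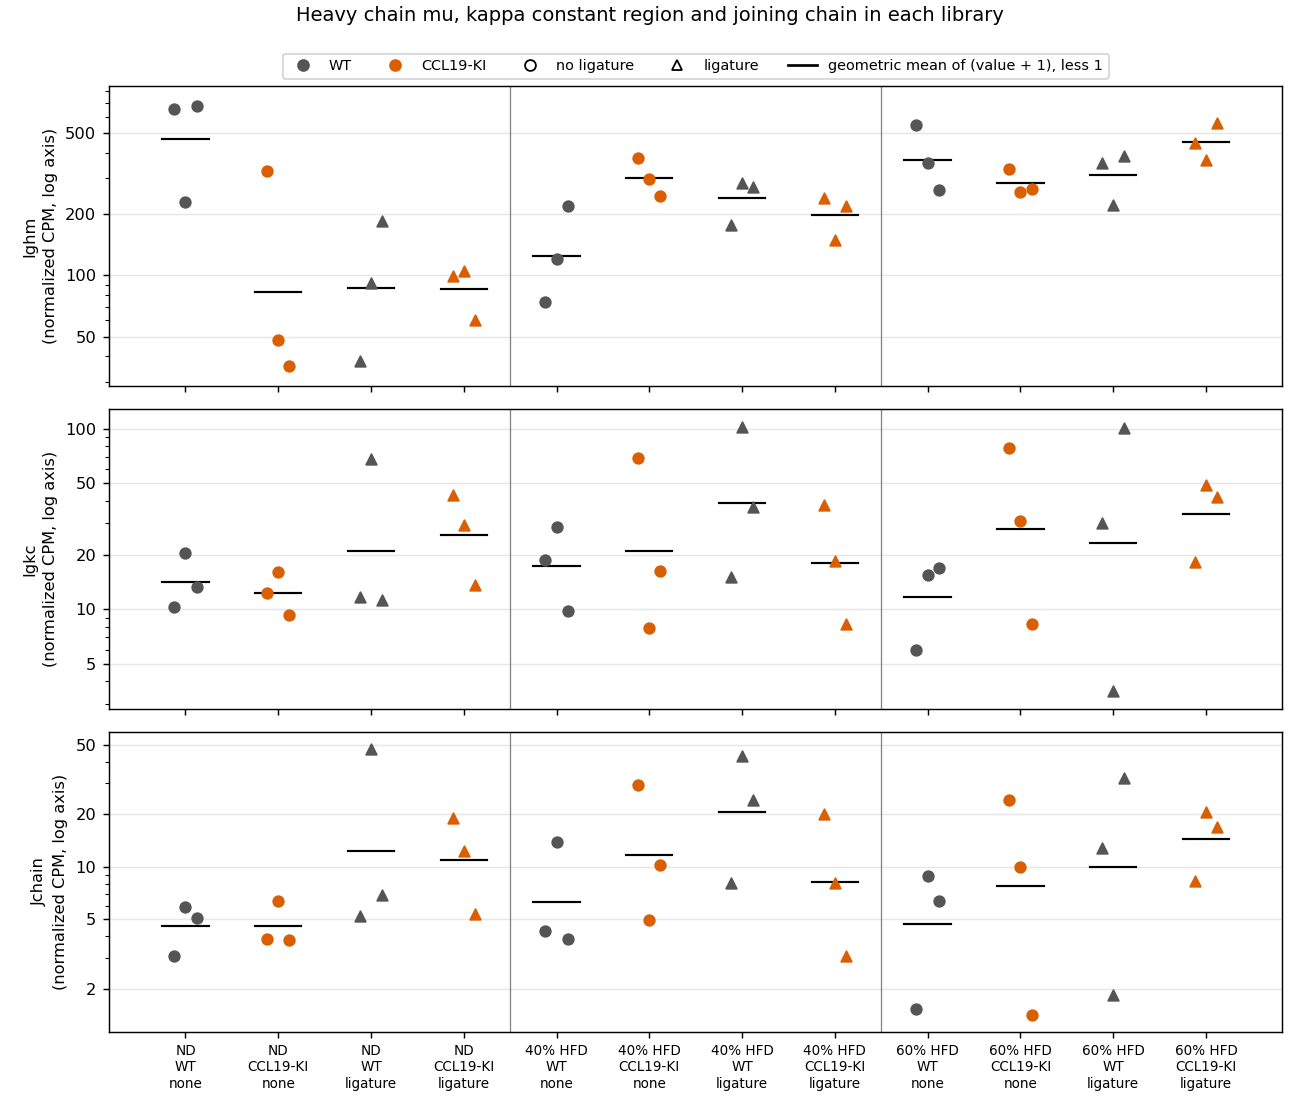
Level of *Ighm*, *Igkc* and *Jchain* (normalized CPM, log axes) in each of the 36 libraries, by diet, genotype (grey WT, orange CCL19-KI) and ligature (circles none, triangles ligature), with the geometric mean of each group of 3 as a bar. *Ighm* spans 35.9 to 678 with its lowest values under ND, while *Igkc* and *Jchain* are high in the same mice.

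The relations between genes were computed over the 36 mice on log2(normalized CPM + 1) for 10 pairs that were chosen after their values had been seen. The p-values of the permutation tests were adjusted over these 10 pairs only, so they take no account of that choice. The r within groups was given no test. *Igkc* and *Jchain* had a Pearson r of 0.949 and a Spearman rho of 0.932 (permutation test, adjusted p = 2e-05 for both, from the smallest p that 100000 permutations can give). The r was 0.939 without the 2 mice farthest from the median of *Igkc*, and 0.969 within groups. In contrast, *Ighm* and *Igkc* had r = 0.107 (permutation test, p = 0.537, adjusted p = 0.672) and rho = 0.138 (p = 0.424, adjusted p = 0.503), and r was −0.00836 without the 2 farthest mice and 0.123 within groups. *Ighm* against *Jchain* had r = 0.0638 (adjusted p = 0.791) and rho = 0.129 (adjusted p = 0.503) by the same permutation test.

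*Ighd* went with a B cell surface marker across mice. *Ighd* and *Cd79a*, which encodes a signalling chain of the B cell receptor, had r = 0.839 and rho = 0.769 (permutation test, adjusted p = 2e-05 for both, r = 0.748 without the 2 farthest mice and 0.865 within groups). *Ighm* and *Cd79a* had r = 0.0146 (permutation test, adjusted p = 0.933) and rho = 0.0530 (adjusted p = 0.760), although within groups r was 0.375. *Ighm* and *Ighd* had r = 0.267 (permutation test, adjusted p = 0.164) and rho = 0.355 (adjusted p = 0.0492), with r = 0.174 without the 2 farthest mice and 0.417 within groups. *Igkc* and *Cd79a* lay between, with r = 0.446 (permutation test, adjusted p = 0.0106) and rho = 0.372 (adjusted p = 0.0432), r = 0.407 without the 2 farthest mice and 0.510 within groups.

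**Figure D2:**
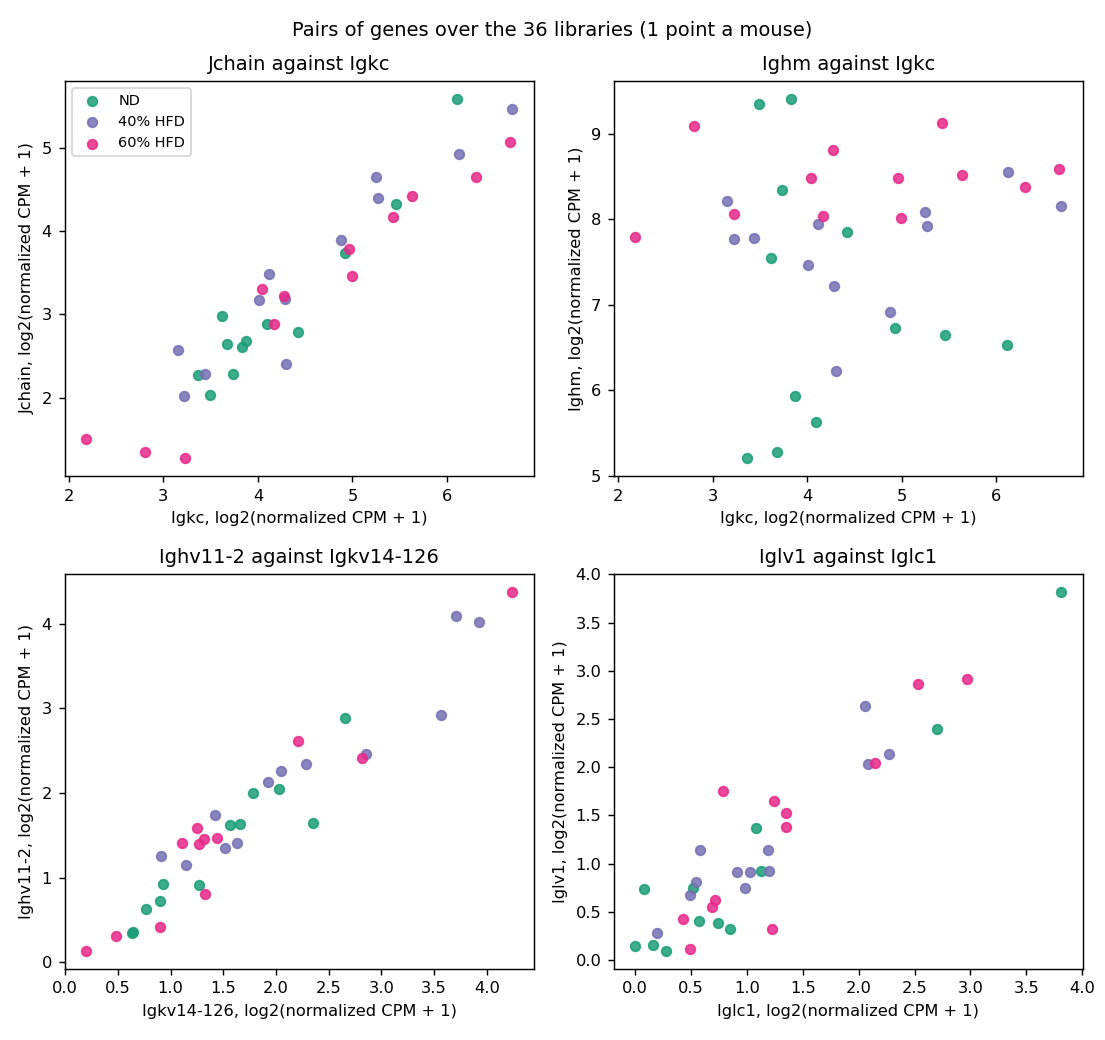
Levels of 4 pairs of genes in log2(normalized CPM + 1), 1 point a mouse (36 mice), coloured by diet. *Jchain* against *Igkc* (r = 0.949), *Ighv11-2* against *Igkv14-126* (r = 0.959) and *Iglv1* against *Iglc1* (r = 0.925) fall along a line, and *Ighm* against *Igkc* (r = 0.107) does not.

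When 17851 genes were ordered by their rank correlation with *Igkc* over the 36 libraries, *Jchain* came first, followed by *Igkv14-126* (rho = 0.774), *Igkv14-111* (0.769), *Ighv11-2* (0.751), *Iglc2* (0.745) and *Mzb1* (0.731), a chaperone of plasma cells and B-1 cells. In the order for *Ighm*, *Jchain* had place 6207, *Igkc* 6064 and *Cd79a* 7394. The nearest genes to *Ighm*, chosen here after their values had been seen, were *Haus3* (rho = 0.893), *Phtf2* (0.875) and *Fabp5* (0.874), and *Lep*, the leptin gene of adipocytes, had place 48 (0.801). These orders are descriptions over libraries that differ in diet, depth and tissue composition, whose part in them was not tested.

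*Igkc* was 3.53 to 102 normalized CPM over the 36 libraries (median 17.7). The 2 highest values were 102 in ligatured WT mice fed a 40% HFD, replicate 2, and 100 in ligatured WT mice fed a 60% HFD, replicate 3, and the latter group also held the lowest value, 3.53 in replicate 2. Mice of the same group thus spanned nearly the whole range of the gene. With *Ighm* left out, the summed level of all members was 10.5 to 311 (median 42.3) and stood at its lowest and highest in the same 2 mice as *Igkc*.

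The lambda C regions were lower than *Igkc* and varied apart from it in a few mice. The median per kb was 2.23 for *Iglc2*, 2.04 for *Iglc1* and 0.963 for *Iglc3*. The lambda share of the light chain C regions per kb was 3.46 to 45.3% (median 13.2%), and it was highest in ligatured WT mice fed an ND, replicate 3. In replicate 2 of that group, *Iglc1* was 13.1, *Iglc2* 14.0 and *Iglv1* 13.1 normalized CPM, which were the highest values of these genes over the 36 libraries.

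Lambda V segments were correlated with a C region to which each is mostly joined. The crossed pairs, *Iglv1* with *Iglc2* and *Iglv2* with *Iglc1*, were not computed, so whether each followed its partner more closely was not tested. *Iglv1*, which joins *Iglc1* and *Iglc3*, had r = 0.925 and rho = 0.851 with *Iglc1* (permutation test, adjusted p = 2e-05 for both, r = 0.881 without the 2 farthest mice and 0.919 within groups). *Iglv2*, which joins mostly *Iglc2*, had r = 0.870 and rho = 0.817 with *Iglc2* (permutation test, adjusted p = 2e-05 for both, 0.823 without the 2 farthest and 0.882 within groups). *Iglv1* held more reads than the other lambda V segments in 29 libraries and tied with *Iglv2* in 1.

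The switched heavy chains were low in most libraries, and their highest values were spread over several groups. *Igha* was 0 to 5.77 normalized CPM, with 5.77 in replicate 1 of the ligatured CCL19-KI group fed an ND. It was 4.46, 5.16 and 1.86 in the ligatured CCL19-KI mice fed a 60% HFD and 0.324, 1.85 and 0.884 in the matching WT mice. The lowest of these CCL19-KI values and the highest WT value were less than 1 read apart. In these libraries 1 read was worth 0.0745 and 0.0803, so the groups were not clearly separated. No member tested was called between genotypes in ligatured mice on this diet by limma or by edgeR. *Ighg2c*, the IgG2 form of C57BL/6 mice, was at 0 in 11 libraries and reached 6.43 in ligatured WT mice fed an ND, replicate 2. *Ighg2b* was at 0 in 7 libraries and reached 5.12 in replicate 1 of the ligatured CCL19-KI group fed a 40% HFD, while *Ighg3* stayed at or below 1.42.

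*Ighg1* was the most uneven of all isotypes. It was at 0 in 22 libraries, at most 0.579 in 35, and 24.0 in ligatured WT mice fed a 40% HFD, replicate 2. *Dntt* and *Vpreb3* were the only genes of the list for V(D)J recombination and the surrogate light chain in the table, with a summed level of at most 1.47.

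**Figure D3:**
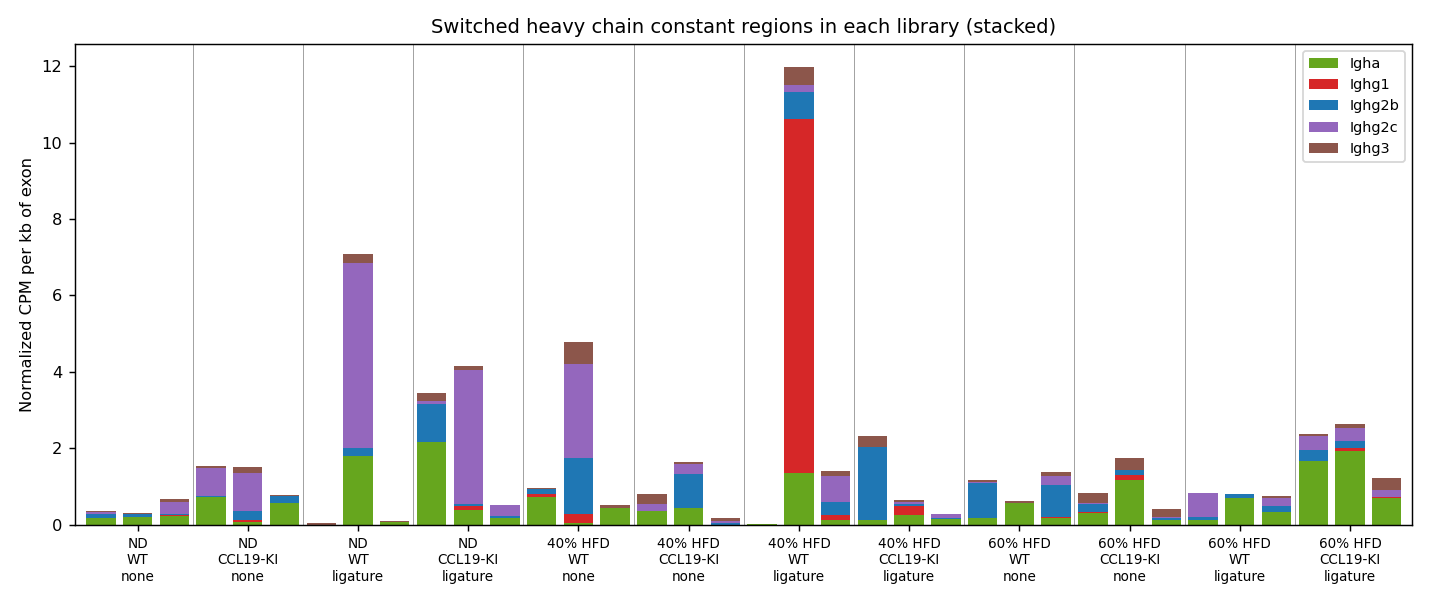
Level of the switched heavy chain C regions (normalized CPM per kb of exon, stacked) in each of the 36 libraries, 3 a group. *Ighg1* stands out in a single ligatured WT mouse fed a 40% HFD, *Ighg2c* in a ligatured WT mouse fed an ND, and most other libraries are low.

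That ligatured WT mouse fed a 40% HFD, replicate 2, was high in many members and in genes of B cells, though not in every class. It held the highest value of 28 of the 108 members, and of 25 of the 97 V segments. *Igkv12-44* was 24.9 there and at most 5.41 elsewhere, *Ighv1-72* 10.0 against at most 0.921, and *Ighd* 12.7 against at most 5.96. The B cell list (16 genes) summed to 227 in it and to 11.4 to 58.4 in the other 35 libraries, with *Ms4a1*, which encodes CD20, at 54.5 against at most 11.4 and *Cxcl13*, the chemokine of B cell follicles, at 77.7 against at most 48.4. Other classes were not at their highest in it. The germinal centre list summed to 53.4 (median of all libraries 49.3) and the plasma cell list to 560 (median 495), and *Ighm* was 284 against up to 678. Of 5 markers of lymph node stroma, *Glycam1* and *Madcam1* were not in the table. The other 3, of which *Cxcl13* is 1, summed to 98.0 in this mouse and to 15.7 to 166 over all libraries. The part of a lymph node or another B cell aggregate in its levels was not tested, and where leaving it out moved a difference named below by over 1.5 times, the value without it is given.

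V segments together were far below the C regions when *Ighm* was counted and closer to them when it was not. The summed V level was 2.81 to 150 normalized CPM (median 15.9). Against the C regions without *Ighm*, the ratio of V to C was 0.365 to 1.05 (median 0.647). It was 0.804, 0.930 and 0.993 in ligatured WT mice fed a 40% HFD, ordered by size, and 0.801, 0.814 and 1.05 in CCL19-KI mice on that diet without ligature. In ligatured CCL19-KI mice of the same diet it was 0.706, 0.834 and 0.961, and in the WT mice on this diet without ligature 0.475, 0.621 and 0.662. All values of these 3 groups were above those of the last. In the groups fed an ND or a 60% HFD the ratio was 0.365 to 0.923, a range that held 5 of the 9 values of the 3 groups. As a score over the members, the ratio was given no test.

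The V reads were few: 17056 over the 36 libraries, of which 5574 were *Ighv*, 9877 *Igkv* and 1605 *Iglv* reads. A library had 35 to 2367 V reads (median 277), on 14 to 96 of the 97 segments (median 52). Only 30 of the 108 members, among them *Ighm*, *Igkc* and *Ighd*, reached 1 normalized CPM in 3 or more libraries and were tested in the fit of all mice, and 30 stayed below 1 in every library.

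The same 2 segments led in most libraries. *Ighv11-2* alone had the most *Ighv* reads in 27 libraries and tied in 1, and *Igkv14-126* alone had the most *Igkv* reads in 23 and tied in 2. Both led alone in 21 libraries, and in 18 both were above every other V segment. Together they held 22.7% of all V reads. *Ighv11-2* was 0.0982 to 19.8 normalized CPM (median 1.88), which was 5.26 to 74.6% of the *Ighv* reads of a library (median 30.9%). *Igkv14-126* was 0.147 to 17.9 (median 1.79), which was 3.57 to 52.4% of the *Igkv* reads (median 18.3%).

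The 2 segments, which lie on different chromosomes and together make the best known receptor of B-1a cells, kept to nearly equal levels. The ratio of *Ighv11-2* to *Igkv14-126* was 0.385 to 1.58 with a median of 1.01. Their r was 0.959 and their rho 0.950 (permutation test over 36 mice, adjusted p = 2e-05 for both), and r was 0.942 without the 2 farthest mice and 0.957 within groups. Both were highest in ligatured WT mice fed a 60% HFD, replicate 3, at 19.8 and 17.9, and both were lowest in the library labelled CCL19-KI fed a 60% HFD without ligature, replicate 3, at 0.0982 and 0.147.

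The other pair known from B-1a cells was low. *Ighv12-3* was 0 to 1.33 and *Igkv4-91* was 0 to 1.89 normalized CPM. Both peaked in the same mouse as the pair above, at 1.33 and 1.89, and were next highest in replicate 1 of the CCL19-KI group fed a 40% HFD without ligature, at 0.668 and 1.22.

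Next to this pair, *Igkv14-111* had a median of 0.707 and reached 8.02 in the same ligatured WT mouse fed a 60% HFD. Its median was above that of *Igkv1-110* (0.316), *Igkv10-96* (0.299) and *Igkv1-117* (0.273). The *Ighv* segments after *Ighv11-2* were *Ighv1-19* (0.216), *Ighv1-55* (0.201), *Ighv1-34* (0.136) and *Ighv14-3* (0.126), so that the median of *Ighv11-2* stood apart from all others of its locus.

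In some mice a single other segment led. In ligatured WT mice fed an ND, replicate 1, *Igkv15-103* held 101 of 179 V reads (56.4%, 95% Wilson interval 49.1 to 63.5%). *Igkv15-103* was 6.96 normalized CPM in that mouse and 6.78 in ligatured CCL19-KI mice fed a 60% HFD, replicate 3, where it led with 17.0% (14.1 to 20.4%), and at most 2.97 in the other libraries. *Iglv1* led in 7 libraries, with up to 30.7% of the V reads (24.4 to 37.8%) in ligatured WT mice fed an ND, replicate 3. *Igkv12-44* led in the ligatured WT mouse fed a 40% HFD described above, with 394 of 2367 reads, and *Ighv1-64* in replicate 3 of the same group, with 83 of 592 reads. *Igkv1-110*, *Igkv2-137*, *Igkv3-2* and *Igkv4-72* each led in 1 library.

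**Figure D4:**
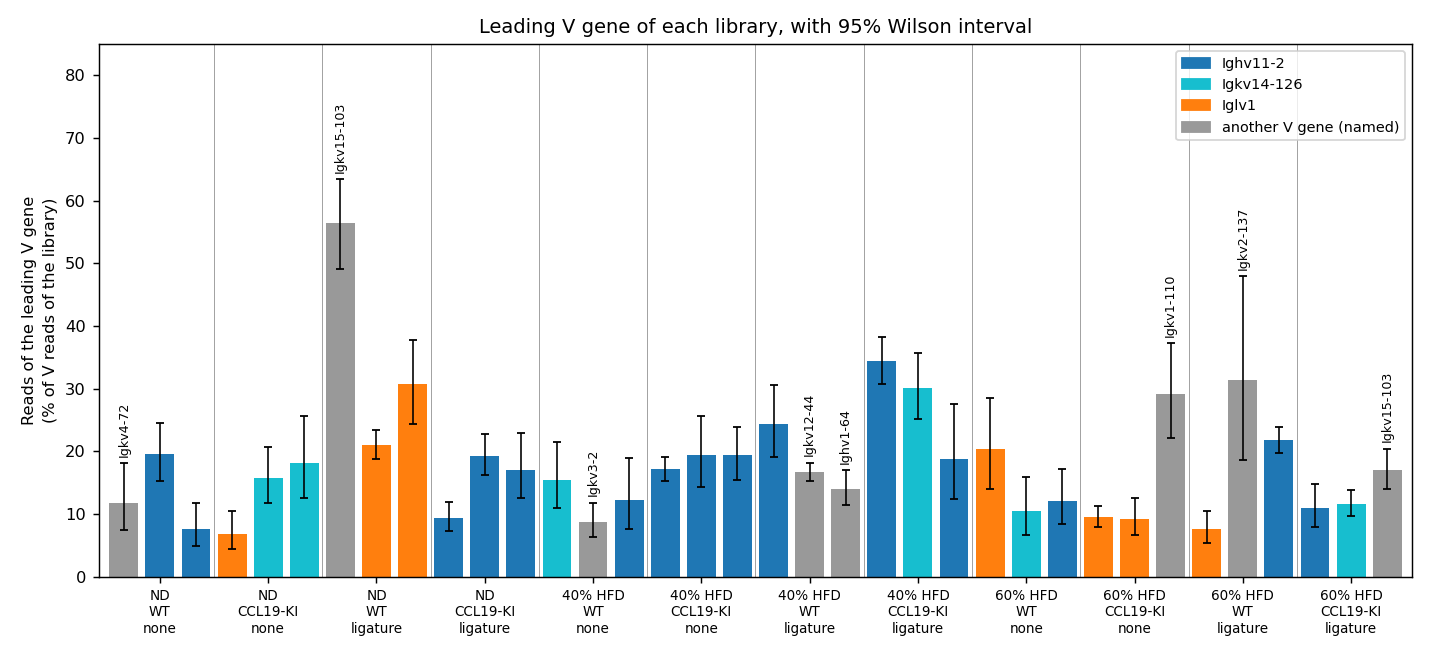
Share of the V reads held by the leading V segment of each library (percent, with 95% Wilson intervals), 3 libraries a group, coloured by the segment. *Ighv11-2* leads in 15 libraries (in 2 of them tied with *Igkv14-126*), *Iglv1* in 7 and *Igkv14-126* alone in 6, and the highest share is 56.4% for *Igkv15-103* in a ligatured WT mouse fed an ND.

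The spread of V use was as wide between mice as these shares. The effective number of V segments was taken as the inverse of the probability that 2 different reads of a library fall on the same segment. It was 3.02 in the mouse led by *Igkv15-103* and 41.3 in WT mice fed an ND without ligature, replicate 3, with a median of 15.8. The library with 35 V reads, from ligatured WT mice fed a 60% HFD, replicate 2, cannot show such shares well: its leading share of 31.4% had an interval of 18.6 to 48.0%.

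Whether diet moved these genes was tested first, averaged over genotype and ligature. On average over the 4 combinations of genotype and ligature, *Ighm* was significantly upregulated under a 60% HFD. Under ND it was 35.9 to 678 normalized CPM over the 12 mice (median 102). With a 40% HFD its range was 73.6 to 375 (median 230). With a 60% HFD it was 221 to 557 (median 356). All mice fed a 60% HFD were above the median of ND, but the ranges overlapped, since the 2 highest values of all, 653 and 678, were in WT mice fed an ND without ligature. In that stratum the direction was the opposite: WT mice without ligature had 653, 230 and 678 under ND and 545, 355 and 261 under a 60% HFD, with means of 8.87 and 8.54 on the log2 scale. In the other strata all mice on a 60% HFD were above all mice on an ND in ligatured WT and ligatured CCL19-KI mice, and the ranges overlapped in CCL19-KI mice without ligature (325, 48.3 and 35.9 against 332, 257 and 266). Whether the diet difference varied between strata was not tested.

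The difference between 60% HFD and ND was 1.41 on the log2(normalized CPM + 1) scale (SE 0.29, limma, adjusted p = 0.00232 over 17852 genes). *Ighm* was the only member of 30 tested that was called, where 18.6% of all genes tested were called, 10.2% as higher. It stayed called without any single mouse (1.26 to 1.66, adjusted p at most 0.00615), with the edgeR test on reads (1.14, adjusted p = 0.0119), without the 2 libraries in which *Ccl19* went against the label (1.30, adjusted p = 0.00747) and with the hepatocyte marker sum of each mouse as a covariate (1.77, adjusted p = 0.00212). In the same contrast *Lep* rose by 1.84 (adjusted p = 0.00143), 9 of 10 hepatocyte genes rose, and of 10 adipocyte genes 1 rose and 3 fell. The other members had a smaller difference: *Igkc* 0.34 (SE 0.47, adjusted p = 0.636), *Ighd* 0.15 (SE 0.19, adjusted p = 0.594) and *Jchain*, not a member, 0.19 (SE 0.45, adjusted p = 0.794). The median over the 30 members was 0.17 and that over all genes 0.01.

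*Igkv4-59* came next under a 60% HFD and is named here after its values were seen. It was 0 to 0.150 normalized CPM with ND (median 0.0265), 0 to 3.04 with a 40% HFD (median 0.112) and 0 to 3.16 with a 60% HFD (median 0.347). Of its words, as counted above for the likeness of segments, 87.0% were shared with other members and 69.5% with genes that are not members. Reads of *Igkv4-59* thus cannot be fully told apart from those of these genes. The difference of *Igkv4-59* was 0.56 (SE 0.21, limma, adjusted p = 0.0593). The edgeR test on reads called it (3.61, adjusted p = 0.00609), as did limma without ligatured WT mice fed a 60% HFD, replicate 2 (0.67, adjusted p = 0.0275), or without the library labelled CCL19-KI fed that diet without ligature, replicate 3 (0.64, adjusted p = 0.0351).

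Under a 40% HFD, 0 of 30 members were called by limma or by edgeR, where limma called 9.21% of all genes, and 3 members had an unadjusted p below 0.05 by limma (26.5% of all genes) and 4 by edgeR (26.8%). All 3 of limma were higher and passed the rule of the study for differential expression (p up to 0.05 before adjustment, with a ratio of 1.5 or more, or 0.67 or less), which 7.9% of all genes passed, 5.16% as higher. *Ighv11-2* was 0.276 to 6.38 normalized CPM under ND (median 1.49) and 1.21 to 16.1 under a 40% HFD (median 3.59), with overlapping ranges and a log2 difference of 0.95 (SE 0.39, adjusted p = 0.117). *Igkv14-126* was 0.552 to 5.28 under ND (median 1.69) and 0.877 to 14.2 under a 40% HFD (median 2.98), a difference of 0.81 (SE 0.39, adjusted p = 0.180). *Ighm* differed by 0.65 (SE 0.29, adjusted p = 0.151), and by 0.90 (adjusted p = 0.0167) without CCL19-KI mice fed an ND without ligature, replicate 1. The difference in *Igkc* was 0.34 (SE 0.47, adjusted p = 0.672), and 0.17 without the ligatured WT mouse that stood apart and 0.14 without replicate 1 of the unligatured CCL19-KI group on this diet.

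**Figure D5:**
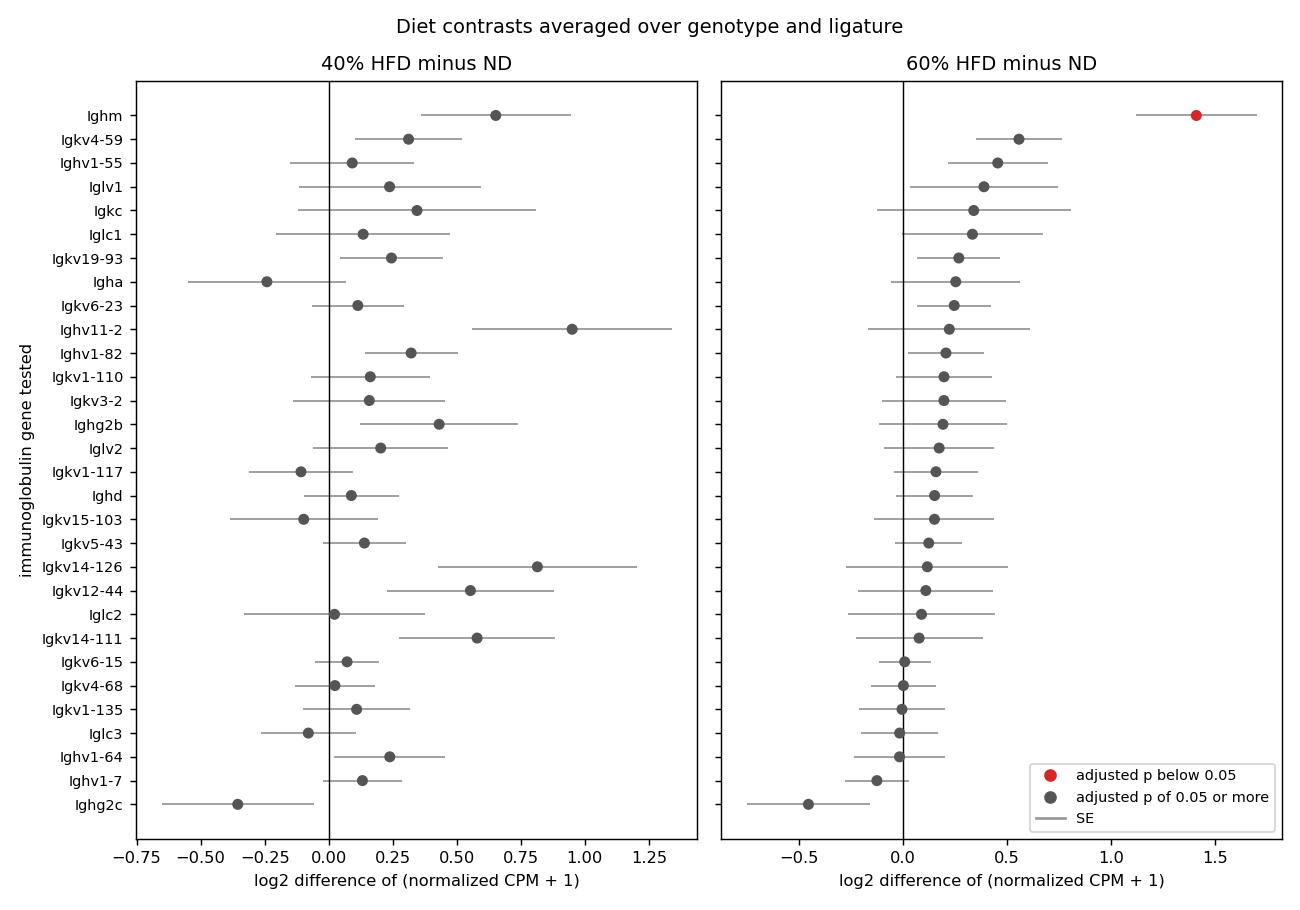
Log2 difference of (normalized CPM + 1) between a 40% HFD and ND (left) and between a 60% HFD and ND (right) for the 30 members tested, as points with SE bars, in the order of the right panel. *Ighm* at 1.41 is the only member with an adjusted p below 0.05 (red), and *Ighv11-2* (0.95) and *Igkv14-126* (0.81) have the largest differences on the left.

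Whether the ligature in the mouth moved immunoglobulin genes in eWAT was tested over the 6 combinations of diet and genotype. 0 of 30 members were called by limma or by edgeR, where limma called 0.325% of all genes, and 3 had an unadjusted p below 0.05 by limma (16.2% of all genes) and 6 by edgeR (18.4%). *Igkc* was 5.97 to 78.4 normalized CPM without ligature (median 15.7) and 3.53 to 102 with it (median 29.8), a log2 difference of 0.61 (SE 0.38, adjusted p = 0.425). *Jchain* differed by 0.87 (SE 0.37, limma, adjusted p = 0.247), *Igkv14-126* by 0.58 (SE 0.32, adjusted p = 0.365) and *Ighv11-2* by 0.57 (SE 0.32, adjusted p = 0.378), while *Ighm* was at −0.27 (SE 0.24, adjusted p = 0.588). The 3 members under the unadjusted threshold were *Igkv15-103* (0.56, SE 0.24), *Ighv1-64* (0.39, SE 0.18) and *Igkv14-111* (0.51, SE 0.25), the first of which was led by a single mouse on each of 2 diets. The ranges with and without ligature overlapped for *Igkc*, and the median over the 30 members was 0.15, beside −0.02 over all genes.

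Whether these genes differed between CCL19-KI and WT mice was tested over all diets and within each. Averaged over diet and ligature, 0 of 30 members were called by limma or by edgeR (0.459% of all genes by limma), and 0 had an unadjusted p below 0.05 by limma (16.9% of all genes) and 1 by edgeR (15.9%). *Igkc* was 3.53 to 102 normalized CPM in WT mice (median 16.2) and 7.89 to 78.4 in CCL19-KI mice (median 18.4), a log2 difference of 0.16 (SE 0.38, adjusted p = 0.859), of 0.28 without the WT mouse that stood apart and of −0.038 without replicate 2 of the ligatured WT group on the 60% HFD. *Ighm* was 37.9 to 678 in WT mice (median 246) and 35.9 to 557 in CCL19-KI mice (median 251), a difference of −0.22 (SE 0.24, adjusted p = 0.664). *Ighv11-2* had 0.47 (SE 0.32, adjusted p = 0.469) and *Igkv14-126* 0.29 (SE 0.32, adjusted p = 0.675). The ranges of the genotypes overlapped for each of these genes, and the 2 libraries in which *Ccl19* went against the label changed no count of members called when left out, although limma then called 1292 of 17585 genes between genotypes in place of 82.

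The only member called between genotypes was *Ighm* under ND without ligature. It was 653, 230 and 678 normalized CPM in WT mice and 325, 48.3 and 35.9 in CCL19-KI mice, and the groups overlapped, since the highest CCL19-KI mouse was above the lowest WT mouse, the library in which *Ccl19* went against the label. The log2 difference was −2.48 (SE 0.66, limma on the 18 mice without ligature, adjusted p = 0.0410). It was the 1 member called of 14 tested, where 7.28% of all genes were called, 3.27% as lower. In that contrast *Igkc* was 10.3, 20.4 and 13.3 in WT and 12.3, 16.0 and 9.32 in CCL19-KI mice, a difference of −0.19 (SE 0.76, adjusted p = 0.895).

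This call rested on single mice. It was lost without WT replicate 1 (−2.24, adjusted p = 0.119) or 3 (−2.21, adjusted p = 0.135) and without CCL19-KI replicate 2 (−2.09, adjusted p = 0.196) or 3 (−1.89, adjusted p = 0.185). Without WT replicate 2 the difference was −2.99 (adjusted p = 0.0364) and without CCL19-KI replicate 1 −3.46 (adjusted p = 0.00048). edgeR gave −1.87 (adjusted p = 0.103). The hepatocyte markers summed to 18.5, 11.1 and 16.6 in these WT mice and to 594, 24639 and 26177 in the CCL19-KI mice, so that genotype and this signal cannot be told apart here. Adipocyte genes were also lower: 4 of 10 fell (*Plin1* by 2.19, *Adipoq* by 2.04, *Lipe* by 1.63 and *Pparg* by 1.32), the median of the 10 was −1.24, and *Lep* was at −2.17 (adjusted p = 0.122). Their part in the difference of *Ighm* was not tested. With the hepatocyte sum as a covariate the difference was −0.65 (adjusted p = 0.946).

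In the other contrasts without ligature, 0 of 14 members were called by limma or by edgeR, where limma called 0% of all genes under a 40% HFD and 4.06% under a 60% HFD. At an unadjusted p below 0.05, limma gave 1 member under a 40% HFD (4.27% of all genes) and 0 under a 60% HFD (24.6%), and edgeR gave 2 on each diet (4.54% and 28.2%). The CCL19-KI group of the 60% HFD holds the library with low *Ccl19*. Without the 2 libraries that went against their label, limma called 0 of 13 members on either diet. Of all 16451 genes it called 6 on the 40% HFD and 629 on the 60% HFD. An unadjusted p below 0.05 by limma was found for 3 members on the 40% HFD and 4 on the 60% HFD, all higher in CCL19-KI mice. These members also passed the rule of the study, as did 469 and 3812 of the 16451 genes on these diets. *Ighm* under a 40% HFD was 73.6, 120 and 219 in WT and 375, 297 and 245 normalized CPM in CCL19-KI mice, without overlap and higher in CCL19-KI mice, and differed by 1.27 (SE 0.66, adjusted p = 0.953). *Ighv11-2* under the same diet was 1.65, 1.54 and 1.21 in WT and 15.2, 2.34 and 4.08 in CCL19-KI mice, also without overlap. Its difference was 1.40 (SE 0.63, adjusted p = 0.953), and 0.74 without CCL19-KI replicate 1. Under a 60% HFD *Igkc* was 5.97, 15.4 and 17.0 in WT and 78.4, 30.9 and 8.34 in CCL19-KI mice, with overlap, and differed by 1.17 (SE 0.76, adjusted p = 0.355).

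In ligatured mice, 0 of 22 members were called between genotypes by limma or by edgeR on any diet, where limma called 2.22% of all genes under ND, 0.042% with the 40% HFD and 0.0781% with the 60% HFD. At an unadjusted p below 0.05, limma gave 0, 2 and 1 members on these diets (16.7%, 5.45% and 4.63% of all genes) and edgeR 1, 7 and 1 (16.3%, 5.85% and 4.71%). *Ighm* was 37.9, 91.2 and 186 in WT and 98.8, 105 and 60.2 normalized CPM in CCL19-KI mice under ND, a difference of −0.02 (SE 0.43, adjusted p = 0.990). *Igkc* was 15.1, 102 and 37.1 in WT and 37.7, 18.5 and 8.33 in the CCL19-KI group of the 40% HFD, with overlap, and differed by −1.06 (SE 1.01, adjusted p = 0.981), by −0.37 without WT replicate 2 and by −1.71 without WT replicate 1. *Igkv12-44* was 0.439, 24.9 and 2.01 in WT and 0.0752, 0.141 and 0 in these CCL19-KI mice, a difference of −2.17 (SE 0.72, adjusted p = 0.807), and of −0.96 without the WT mouse that stood apart.

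The genotype differences of *Ighd* in ligatured mice had opposite signs on the 2 high-fat diets, and neither passed the adjusted threshold. Under a 40% HFD it was 2.56, 12.7 and 3.45 in WT and 1.88, 2.62 and 1.24 normalized CPM in CCL19-KI mice, with a small overlap, and differed by −1.07 (SE 0.41, adjusted p = 0.859), and by −0.48 without WT replicate 2. Under a 60% HFD it was 1.55, 1.28 and 1.33 in WT and 3.24, 3.50 and 5.96 in CCL19-KI mice, without overlap, a difference of 1.10 (SE 0.41, adjusted p = 0.979). The difference between the 2 diets was not tested.

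With ligature and without it, the effect of the genotype was compared over all 3 diets. 0 of 30 members were called by limma or by edgeR (0.0056% of all genes by limma), and 5 had an unadjusted p below 0.05 by limma (10.8% of all genes) and 7 by edgeR (11.7%). Of the 5, 4 passed the rule of the study, which 4.54% of all genes passed, 1.43% as lower, and all were lower in ligatured CCL19-KI mice than the other groups would give. *Iglc2* had −1.37 (SE 0.58, adjusted p = 0.415), *Iglv1* −1.33 (SE 0.58, adjusted p = 0.431), *Iglc1* −1.23 (SE 0.55, adjusted p = 0.439) and *Igkv5-43* −0.66 (SE 0.27, adjusted p = 0.400). The lambda genes were highest in ligatured WT mice fed an ND, replicate 2, and the differences were −1.06, −1.05 and −0.97 for *Iglc2*, *Iglv1* and *Iglc1* without that mouse.

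Summed over the members, the log2 ratios were set mostly by *Ighm*. For 60% HFD against ND the ratio was 1.10 with *Ighm* and 0.35 without it (0.11 to 0.63 when single mice, both of the ligatured WT group on the 60% HFD, were left out), for ligature against none −0.08 and 0.56, and for CCL19-KI against WT fed an ND without ligature −2.02 and 0.10 (−0.11 to 0.33 without single mice). In ligatured mice fed a 40% HFD the ratio of CCL19-KI to WT was −1.23 without *Ighm*, and −0.43 when the WT mouse that stood apart was left out as well. The spread between mice of a group (pooled SD) was 0.72 with *Ighm* and 1.17 without it on the same scale.

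Genes of B cells and plasma cells outside the loci were tested in the same contrasts. Of all genes, limma called 0.459% for genotype, 0.325% for ligature, 9.21% under a 40% HFD and 18.6% under a 60% HFD. Of 16 B cell genes, 0 were called by limma for genotype, for ligature or under a 40% HFD, and only *Cd72*, a receptor that dampens B cell signals, rose under a 60% HFD (0.59, SE 0.20, adjusted p = 0.0426), where 2 of the 16 differences were above 0 and their median was −0.14. The genes of this list with the highest medians were *Bank1* (6.24 normalized CPM), *Cd79b* (2.79) and *Ms4a1* (2.49). Of 16 plasma cell genes, named here after their values were seen, *Irf4* fell under a 40% HFD (by 1.10, SE 0.28, adjusted p = 0.0183) and under a 60% HFD (by 1.60, SE 0.28, adjusted p = 0.000777), *Creld2* (0.75, SE 0.20, adjusted p = 0.0121) and *Slamf7* (0.89, SE 0.24, adjusted p = 0.0135) rose under a 60% HFD, and *Tent5c* fell with ligature (by 0.77, SE 0.16, adjusted p = 0.0266). Under a 60% HFD, 2 of the 16 plasma cell genes were thus called higher and 1 lower. The share called of all genes was 18.6% there, with 10.2% as higher. *Irf4* and *Creld2* are also made by cells outside the B lineage.

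Some receptors that bind immunoglobulins were high in eWAT. The median was 242 normalized CPM for *Fcgrt*, the receptor that keeps IgG from breakdown. It was 105 for *Pigr*, which carries IgA and IgM across epithelia, and 73.3 for *Fcgr2b*, the inhibitory receptor for IgG. *Pigr* differed widely between groups. Without ligature, its mean log2(normalized CPM + 1) was 1.21 in ND-fed WT mice and 8.09 in WT mice on the 60% HFD. On the same scale, *Fcamr* and *Fcer1a* were low in these ND-fed WT mice, at 1.05 and 0.768. Of 9 receptors tested by limma, 2 rose and 1 fell under a 60% HFD, where 18.6% of all genes were called. *Pigr* (2.51, SE 0.76, adjusted p = 0.0243) and *Fcgr4* (0.74, SE 0.24, adjusted p = 0.0323) were higher and *Fcamr* (−0.52, SE 0.13, adjusted p = 0.0079) was lower. Macrophages also make *Fcgr4*, and of 8 macrophage genes 2 rose in this contrast and all 8 differences were above 0, whose part was not tested. *Pigr* also rose under a 40% HFD (3.19, SE 0.76, adjusted p = 0.0124). In CCL19-KI against WT mice without ligature, *Pigr* was higher under ND (5.47, SE 1.27, adjusted p = 0.0287) and lower under a 60% HFD (−5.29, SE 1.27, adjusted p = 0.0426). *Pigr* is also made by hepatocytes and other epithelia, whose markers differed between these groups, and their part in its level was not tested. Of 4 genes tested from the list for germinal centres and class switching, 0 were called in any of the 11 comparisons. Of 10 for B cell homing and survival, only *Ccl19* was called. It is the gene inserted in the CCL19-KI line, and it was called only between genotypes.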

How the data were processed

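RNA of 36 eWAT samples was sequenced after rRNA depletion with a directional kit. Per the authors, reads were trimmed (Trimmomatic 0.38 in the processing notes), aligned with Bowtie2 and counted per gene with RSEM 1.3.0, and the deposited signal values are CPM normalized with edgeR. The paper names mm10 and the notes list GRCm39, so coordinates and sequences are those of GENCODE M21 (GRCm38), which held all 108 members. All values were whole multiples of 1 read (100%, tolerance 0.01), which gave reads per gene.

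Values were tested as log2(value + 1) with limma 3.58.1 (trend, R 4.3.3) for genes at 1 or more in at least 3 libraries of the fit, with Benjamini-Hochberg adjustment over all genes tested: 17852 in the fit of 36 mice, 16653 in the 18 ligatured and 16923 in the 18 other mice. This scale understates the change of low genes. The limma p-values rest on the spread between mice within groups of 3, pooled over all groups of the fit and moderated across genes. Alternatives were pseudocounts of 0.1 and 5, no filter, other normalizations, the edgeR 4.0.16 quasi-likelihood test on reads, a replicate block, a fit of all 36 mice and leaving out each mouse. The hepatocyte covariate, sums without *Ighm* and leaving out the discordant *Ccl19* libraries were added after seeing the data. Correlations used 100000 permutations in scipy 1.17.1. The procedure was tested on simulated data, with changes only in genes at higher levels than most members and with 1 fixed spread. For genotype under a 40% HFD without ligature, limma found 12 of 111 genes with a log2 change of 1 and 82 of 89 with a change of 2. A count of 0 members called within a diet thus does not show that a change is absent.

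Genes were named by rule: all C regions, the 5 *Ighv*, 5 *Igkv* and 3 *Iglv* segments with the highest median, members called, the leading V segment of each library, and per list up to 5 genes by median besides *Jchain*, *Mzb1*, *Cd79a*, *Ms4a1* and other genes that are not reported here. *Ighv12-3*, *Igkv4-91*, *Ighv1-72*, *Igkv4-59*, *Igkv5-43* and the list genes called in a test were named after their values were seen. Members and lists were chosen with earlier results of these data known. Design text and labels differ on the ligature, and the labels were followed.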

Additional observations from a re-analysis of the deposited data

How the results depend on the processing

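*Ighm* kept its direction and its call for 60% HFD against ND under every alternative run. The count of members called there was 1, and 2 with a pseudocount of 0.1 and with edgeR, and 1 to 2 without single mice. Under a 40% HFD it was 0, and 0 to 1 without single mice. For CCL19-KI against WT fed an ND without ligature it was 1, and 0 without a filter, with edgeR and with the hepatocyte covariate, and 0 to 1 without single mice. The log2 difference of *Ighm* there was −2.48 without a filter (adjusted p = 0.0534), −1.87 with edgeR and −0.65 with the hepatocyte covariate, and −3.46 to −1.89 without single mice. More genes were adjusted for without the filter, and the cause of the other changes was not tested. *Igkc* under a 40% HFD reversed to −0.048 with the hepatocyte covariate. Between genotypes *Igkc* was at −0.038 to 0.34 without single mice, and reversed to −0.038 without ligatured WT replicate 2 of the 60% HFD. Without *Ighm*, the summed log2 ratio was 0.35 for 60% HFD against ND, −0.69 for genotype by ligature, and for CCL19-KI against WT without ligature 0.10 under ND (−0.11 to 0.33 without single mice) and 0.90 under a 60% HFD (0.22 without CCL19-KI replicate 1, and 1.66 without replicate 3, the library with low *Ccl19*), since *Ighm* makes up most of the sum. Without single mice the sum under ND without ligature was −2.80 to −1.50.

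Replicate numbers did not pair the mice: over 198 pairs of samples with the same number the mean correlation of their deviations was −0.00825, and 73 pairs were over 0.1. With the replicate block, *Ighm* under ND without ligature was at −2.48 (limma, adjusted p = 0.0419) and no count of members called changed. Depth limits the V segments most, since most had few reads in a library, and the statistical screen for outlying samples was not applied to groups of 3.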
